A study of Homo sapiens with 18 samples.

Results

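SK-N-MC cells held in 5 nM rotenone were compared between the fourth and the first week of exposure. The arrays were taken by their labels alone, the 3 collected after 4 weeks at this dose (4w5 nM) against the 3 collected after 1 week (1w5 nM), which makes 6 of the 18 arrays of the series. The remaining arrays were vehicle cells given 0.05% ethanol (1w0 nM and 4w0 nM) and cells given 50 nM rotenone (1w50 nM and 4w50 nM), again 3 arrays each. All cells grew in minimal essential medium with glucose, glutamine and fetal serum but without pyruvate, which shields cells from complex I inhibitors, and 5 nM is the dose that the labels call non-lethal for this line. The study itself calls this dose marginally toxic and reports some cell death and slower growth with it. The series design describes 3 experiments that each ran through both time points, with the cells of 5 dishes combined into each sample, so the spread between the 3 arrays of a group covers experiments and not single dishes. The labels do not say whether a replicate number marks the experiment. No vehicle array enters the difference of 4w5 nM and 1w5 nM, in which longer exposure cannot be told apart from longer culture, and the change of vehicle cells over the same weeks is therefore set beside it.

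Rotenone is a plant-derived pesticide that blocks electron transfer through complex I of the mitochondrial respiratory chain, and it also binds tubulin and slows the assembly of microtubules. Slowed respiration is known to lower the NAD+ to NADH ratio and the supply of aspartate, and cells answer such stress in part through phosphorylation of eIF2alpha and translation of the transcription factor ATF4, which turns on genes of amino acid import and synthesis. SK-N-MC is a human tumour line that the labels call neuroepithelioma and the study neuroblastoma, and it is known to carry the EWS-FLI1 fusion of the Ewing tumour family.

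Genes that define these cell types were looked up on the 6 arrays. CD99, the surface marker used to diagnose Ewing tumours, lay between 2838 and 3459 on all 6 arrays, and NKX2-2, a transcription factor induced by EWS-FLI1, between 1389 and 2005. Of the sympathetic neuroblast genes, HAND2 did not exceed 9.76 and PHOX2A and TH did not exceed 22.8, near or below the floor of 16 to which lower signals were set. GATA3 lay between 135 and 206 and DBH between 38.5 and 55.4. Markers of other cell types did not give 1 answer. KRT19 and CDH1 (epithelial), VWF (endothelial) and CD3D (T cell) did not exceed 16.8, while EPCAM (44.2 to 75.5) and KRT5 (57.2 to 82.0), also epithelial, and PECAM1 (71.7 to 115), also endothelial, were above the floor, and PTPRC (leukocyte, up to 1567) and COL1A2 (fibroblast, up to 3221) were well above it. The cells are called SK-N-MC cells here and not neuroblasts.

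Before the results, 1 array needs a remark. Group means published for the 1-week groups matched the deposited arrays within 1% for 3 of 75 probe sets of 1w5 nM and 3 of 112 of 1w50 nM as labelled, but for 68 and 94 of them once replicate 2 of 1w5 nM and replicate 3 of 1w50 nM changed places. For 4w5 nM, 384 of 457 matched as labelled. By its own values replicate 2 of 1w5 nM was closer to the other 1w5 nM arrays (mean r = 0.9845 over all genes tested) than to replicates 1 and 2 of 1w50 nM (0.9761). Replicate 1 of 1w5 nM, however, correlated as closely with replicate 3 of 1w50 nM (r = 0.9852) as with its own group (mean r = 0.9848). The labels were kept, and the counts over all genes are given also without this array and with the exchange. Over the 6 arrays, the correlation between arrays of a group did not fall below 0.9809 in 1w5 nM and 0.9673 in 4w5 nM. The 18 hybridization control probe sets, which report spiked-in bacterial and phage transcripts, were dimmer in 4w5 nM (mean log2 8.87 ± 0.214, SD, n = 3) than in 1w5 nM (9.97 ± 0.129), a ratio of 0.464 that did not overlap (exact permutation test, two-sided, p = 0.1, the smallest that 3 against 3 arrays allow). GAPDH probe sets at the 3′ and 5′ ends of the transcript, a sign of RNA integrity, differed by a ratio of 0.94 between the times (p = 0.1 in the same exact test) and those of ACTB by 1.04 (p = 0.6). Median signals were 95.3 and 97.6. At 50 nM the same controls fell from between 9.69 and 9.98 at 1 week to between 8.91 and 9.01 at 4 weeks, whereas in vehicle cells they lay between 9.85 and 10.1 and then between 9.80 and 10.0. The dimmer controls thus went with both 4-week rotenone groups and not with 4-week vehicle. The part of this difference between hybridizations in the results was not tested, and with each group on its own 3 arrays it cannot be told apart from time at 5 nM, nor from what 5 nM shared with 50 nM and not with vehicle.

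Over 9162 genes, 375 were higher by at least 2-fold in 4w5 nM (4.09%) and 316 were lower by at least 2-fold (3.45%), each at an adjusted p below 0.05 in limma. At any size of change, 1868 genes rose (20.4%) and 1587 fell (17.3%), and 4287 had an unadjusted p below 0.05. The shares of 20.4% and 17.3% are the measure for all counts of list members given below. The 3 arrays of 4w5 nM lay wholly above those of 1w5 nM for 2578 genes (28.1%) and wholly below them for 2149 (23.5%). Genes that fell included the lectin LGALS1, the surface protein DLK1, 17 of 29 interferon response genes and 7 of 15 genes of HLA class I and peptide loading. Those that rose included the cell cycle inhibitor CDKN1B, the adhesion molecule NCAM2, 14 of 27 targets of ATF4 and CHOP, and 13 of 31 kinesin, dynein and dynactin genes. Without replicate 2 of 1w5 nM the 2-fold counts were 338 and 282, of which 307 and 268 were shared with the full set, and those at any size 1477 and 1089. With the exchange they were 480 and 303, of which 348 and 262 were shared, and 2019 and 1421 at any size. Which direction had more genes depended on the normalization. Scaling to quantiles gave 294 higher and 346 lower at 2-fold, and 1652 and 1869 at any size.

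The largest falls were in genes with unlike roles. LGALS1, the secreted lectin galectin-1, had signals of 634, 675 and 615 in 1w5 nM and of 83.1, 73.1 and 67.6 in 4w5 nM, an 8.62-fold fall (log2 difference -3.11 ± 0.17 (SE), adjusted p = 8.74e-09). All 3 later arrays lay far under all 3 earlier ones, with little spread inside either group. DLK1, a transmembrane protein of the Notch ligand family found on progenitor cells, went from 443, 615 and 416 in 1w5 nM to 43, 49 and 56.7 in 4w5 nM (log2 difference -3.30 ± 0.28 (SE), adjusted p = 4.32e-07). G0S2, an inhibitor of triglyceride lipase, went from 269.5, 235 and 266 in 1w5 nM to 21, 27.8 and 36.3 in 4w5 nM (log2 difference -3.21 ± 0.19 (SE), adjusted p = 1.49e-08). In all of these genes the lowest early array was over 6 times the highest late one.

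CYTL1, a secreted cytokine-like protein, went from 473, 459 and 403 in 1w5 nM to 55.4, 44.3 and 58.7 in 4w5 nM (log2 difference -3.08 ± 0.26 (SE), adjusted p = 5.04e-07). NPTX2, a secreted neuronal pentraxin, went from 266, 204 and 274 in 1w5 nM to 29.8, 67.5 and 10.7 in 4w5 nM (log2 difference -2.95 ± 0.47 (SE), adjusted p = 0.000163). On the third late array it lay below the floor, and on the second well above the other two. ADAMTS13, the protease that cleaves von Willebrand factor, had 169, 109 and 125 in 1w5 nM and lay under the floor on every 4w5 nM array, so its fall was at least 8.26-fold (adjusted p = 0.00441). DUSP2, a nuclear phosphatase that switches off MAP kinases, went from 396, 718 and 436 in 1w5 nM to 108, 65 and 61.9 in 4w5 nM (log2 difference -2.72 ± 0.42 (SE), adjusted p = 0.000113). The high value of DUSP2 came from replicate 2 of 1w5 nM, and the groups stayed apart without it (adjusted p = 0.00121). OGDHL, an isoform of the 2-oxoglutarate dehydrogenase subunit of the tricarboxylic acid cycle, went from 342, 496 and 369 in 1w5 nM to 59.7, 57.2 and 75.2 in 4w5 nM (log2 difference -2.64 ± 0.21 (SE), adjusted p = 2.8e-07).

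Other large falls were in genes of calcium and selenium binding and of acetylcholine storage. S100A11, a calcium-binding protein, went from 745, 710.1 and 673 in 1w5 nM to 190.3, 132 and 73.6 in 4w5 nM (log2 difference -2.53 ± 0.37 (SE), adjusted p = 8.31e-05). SELENBP1, a methanethiol oxidase that binds selenium, went from 222, 325 and 200.2 in 1w5 nM to 56.1, 48.3 and 38.4 in 4w5 nM (log2 -2.37, adjusted p = 0.000123). SLC18A3, the vesicular acetylcholine transporter, went from 104, 196 and 139 in 1w5 nM to 18.6, 25.4 and 30.3 in 4w5 nM (log2 -2.54, adjusted p = 1.7e-06). STMN4, a stathmin that binds tubulin, went from 484, 675 and 489 in 1w5 nM to 119, 97.3 and 108 in 4w5 nM (log2 -2.33, adjusted p = 1.65e-05). The rule that chose these genes allowed no overlap between the 2 times.

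**Figure D1:**
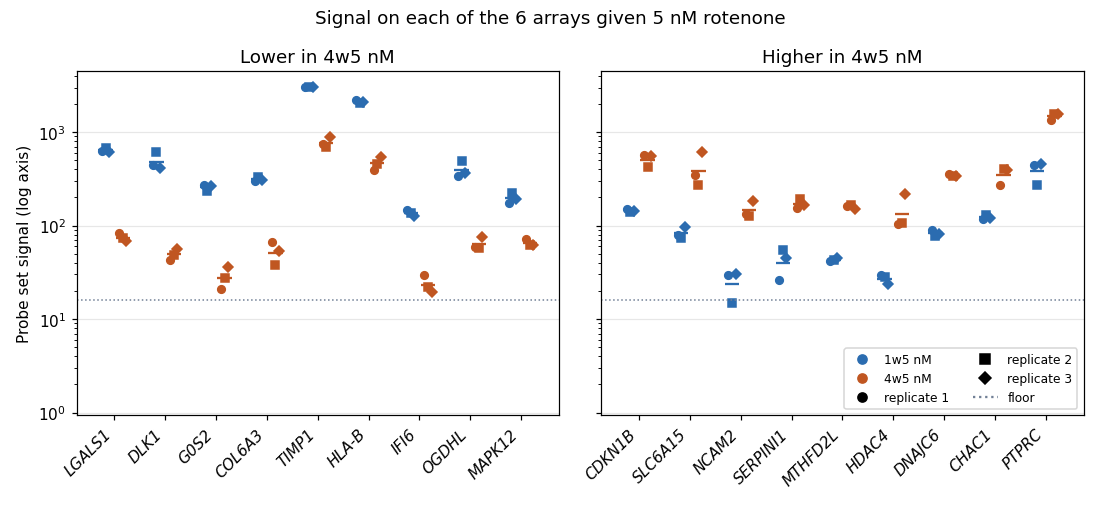
Signal of 18 named genes on each of the 6 arrays (log axis in units of deposited signal; blue 1w5 nM, orange 4w5 nM; marker shape gives the replicate, bars the geometric mean of 3 arrays, the dotted line the floor of 16). LGALS1 lay between 615 and 675 in 1w5 nM and between 67.6 and 83.1 in 4w5 nM, and CDKN1B between 140.5 and 152 and then between 421 and 565.

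The rises were smaller, reaching 6.79-fold. CDKN1B, the cyclin-dependent kinase inhibitor p27 that holds cells out of S phase, went from 152, 140.5 and 144 in 1w5 nM to 565, 421 and 553 in 4w5 nM (log2 difference 1.81 ± 0.16 (SE), adjusted p = 7.84e-07). DZANK1, a protein with zinc ribbons and ankyrin repeats, went from 18.9, 17.7 and 23.3 in 1w5 nM to 97.4, 123 and 203 in 4w5 nM (log2 difference 2.76 ± 0.43 (SE), adjusted p = 0.000128). Its 1w5 nM values stood just above the floor. SLC6A15, a neuronal carrier of branched-chain amino acids, went from 80.1, 74.2 and 96.5 in 1w5 nM to 346, 272 and 608 in 4w5 nM (log2 difference 2.21 ± 0.27 (SE), adjusted p = 1.82e-05). For DZANK1 and SLC6A15 the third late array was the highest.

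NCAM2, a neural cell adhesion molecule, went from 29.4, 14.8 and 30.4 in 1w5 nM to 132, 127 and 185 in 4w5 nM (log2 difference 2.59 ± 0.45 (SE), adjusted p = 0.000307). HDAC4, a class IIa histone deacetylase, went from 29.5, 28.4 and 23.9 in 1w5 nM to 104, 107 and 219 in 4w5 nM (log2 difference 2.31 ± 0.32 (SE), adjusted p = 5.13e-05). NCAM2 had 1 early array below the floor, and HDAC4 had its highest value on the third late array. MTHFD2L, a mitochondrial enzyme of one-carbon metabolism, went from 41.6, 43.4 and 45 in 1w5 nM to 162, 168 and 149 in 4w5 nM (log2 difference 1.88 ± 0.17 (SE), adjusted p = 8.16e-07). MTHFD2L stood out for how closely both sets of replicates lay together. DNAJC6, auxilin, which strips clathrin from vesicles and is mutated in juvenile parkinsonism, went from 89.2, 77.8 and 80.7 in 1w5 nM to 355, 335 and 340.5 in 4w5 nM (log2 difference 2.06 ± 0.33 (SE), adjusted p = 0.00015). SERPINI1, the neuronal protease inhibitor neuroserpin, went from 25.9, 54.4 and 44.6 in 1w5 nM to 154, 191 and 167 in 4w5 nM (log2 difference 2.09 ± 0.30 (SE), adjusted p = 6.68e-05).

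Also among the 15 largest rises were MIS12 (log2 2.05, adjusted p = 5.49e-05), a kinetochore subunit, and ARHGAP12 (log2 1.85, adjusted p = 0.000197). LIFR, the receptor of leukaemia inhibitory factor, rose by 1.85 (adjusted p = 0.000291), and YAP1, the effector of the Hippo pathway, by 2.08 (adjusted p = 0.00392). BAG4 (log2 2.12, adjusted p = 0.00547), a cochaperone, WASL (log2 1.93, adjusted p = 0.00848), an activator of actin branching, and ZIC1 (log2 2.20, adjusted p = 0.00464), a neural transcription factor, complete the set with PTPRC. PTPRC, the leukocyte phosphatase CD45, went from 442, 270.5 and 459 in 1w5 nM to 1338, 1544 and 1567 in 4w5 nM, with an adjusted p of 0.0227 that became 0.0896 without replicate 2 of 1w5 nM. In bulk RNA such as this, fewer cells of a type and less RNA per cell cannot be told apart.

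Genes of the extracellular matrix and of the contractile cytoskeleton fell more often than they rose. Of 44 measured collagen and matrix genes, 15 fell, 9 of them at least 2-fold, and 5 rose (median log2 -0.08, against 0.02 over all genes). Relative to the mean of 1w5 nM, the matrix list had medians of -0.268, -0.167 and 0.0159 on the 3 late arrays. The third late array thus did not show a lower level of the list as a whole. COL6A3, a collagen VI chain, went from 297, 335 and 309.5 in 1w5 nM to 67, 37.6 and 52.8 in 4w5 nM (log2 difference -2.62 ± 0.25 (SE), adjusted p = 1.76e-06). LOXL1, an enzyme that cross-links elastin, went from 217, 479 and 244 in 1w5 nM to 46.5, 30.6 and 33.3 in 4w5 nM (log2 difference -3.02 ± 0.38 (SE), adjusted p = 2.53e-05). BGN, the proteoglycan biglycan, fell by 1.66 on the log2 scale (adjusted p = 3e-06) and THBS2, thrombospondin 2, by 1.76 (adjusted p = 0.00155). The rises in this list were LUM (log2 1.54, adjusted p = 0.0395), the keratan sulphate proteoglycan lumican, FBN2 (log2 1.26, adjusted p = 0.000196), a fibrillin, COL4A6 (log2 0.76), TNXB (log2 0.58) and LAMC1 (log2 0.54). FN1, fibronectin, had 1623, 1637 and 1553 in 1w5 nM and 977, 877 and 1355 in 4w5 nM and did not pass the test (adjusted p = 0.604).

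Of 27 actin and smooth muscle genes, 12 fell and 1 rose (median log2 -0.32). TPM2, a tropomyosin, went from 842, 1211 and 991 in 1w5 nM to 344, 293 and 251 in 4w5 nM (log2 difference -1.77 ± 0.25 (SE), adjusted p = 6.68e-05). CALD1, caldesmon, which binds actin and tropomyosin, went from 302, 415 and 374 in 1w5 nM to 137, 86.8 and 111 in 4w5 nM (log2 difference -1.72 ± 0.32 (SE), adjusted p = 0.000621). TAGLN2, transgelin 2, went from 1023, 1203 and 983 in 1w5 nM to 454, 425 and 299 in 4w5 nM (log2 difference -1.46 ± 0.16 (SE), adjusted p = 8.72e-06). CNN3, a calponin, was the exception with 329, 284 and 363 in 1w5 nM and 700.1, 651 and 522 in 4w5 nM (adjusted p = 0.00312). All 3 arrays of 4w5 nM showed the lower level of this list, with medians of -0.308, -0.435 and -0.439 relative to the mean of 1w5 nM.

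Of 26 proteases and inhibitors 5 were higher and 5 lower (19.2% each), near the shares of 20.4% and 17.3% over all genes. TIMP1, a secreted inhibitor of metalloproteinases, went from 3059.9, 3008 and 3074 in 1w5 nM to 754, 696 and 877 in 4w5 nM (log2 difference -1.98 ± 0.17 (SE), adjusted p = 4.32e-07). MMP9, a gelatinase, went from 240.2, 279 and 272 in 1w5 nM to 90.3, 86.1 and 94.8 in 4w5 nM (log2 difference -1.54 ± 0.12 (SE), adjusted p = 1.71e-07). MMP2 fell by 0.70 (adjusted p = 0.000962), while ADAM9 (log2 1.00, adjusted p = 0.00193) and ADAM10 (log2 0.72, adjusted p = 0.000462), membrane proteases that shed surface proteins, and PLAUR (log2 1.01, adjusted p = 0.000771), the urokinase receptor, rose. Of 32 integrins, cadherins and other adhesion molecules, 5 rose and 7 fell; besides NCAM2 the larger changes were VCAM1 (log2 1.56, adjusted p = 0.013), CTNND2 (log2 0.99, adjusted p = 0.0156) and, downwards, ITGA7 (log2 -1.005, adjusted p = 0.00445). These shares were 15.6% and 21.9%, against 20.4% and 17.3% over all genes. Of the 7 that fell, 1 kept its call without replicate 2 of 1w5 nM.

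Several of these genes also belong to the 29 measured genes that EWS-FLI1 is known to repress. In that list 10 fell and 1 rose, with LGALS1, TIMP1, TNC (log2 -1.64, adjusted p = 0.00865) and COL1A2 (log2 -1.48, adjusted p = 7.48e-05) down by over 2-fold and ANXA1 up (log2 difference 0.76 ± 0.17 (SE), adjusted p = 0.00213). Its median was near that of all genes (-0.05), and it became 0.00223 without replicate 2 of 4w5 nM. Of 29 genes that the fusion is known to induce, 6 rose (20.7%) and 7 fell (24.1%), against 20.4% and 17.3% over all genes (median -0.06). KIT (log2 1.01, adjusted p = 0.0133), NPY1R (log2 0.88, adjusted p = 3.75e-05) and HOXD13 (log2 0.79, adjusted p = 0.00255) rose, while ADRA1D (log2 -0.98, adjusted p = 0.00176), GLI1 (log2 -0.87, adjusted p = 0.001) and IGF1 (log2 -0.76, adjusted p = 0.00102) fell.

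Many interferon-induced and HLA class I genes fell, and no gene of either list rose. Interferons signal to a short promoter element, the interferon-stimulated response element, and raise antiviral proteins together with the molecules that show peptides to T cells. Of 29 measured interferon response genes, 17 fell, 10 of them at least 2-fold, and the median was -0.58. Of 15 genes of HLA class I and peptide loading, 7 fell, 5 of them at least 2-fold (median -0.41). The falls stood on all 3 arrays of 4w5 nM, with list medians of -0.595, -0.64 and -0.465 for the interferon genes and -0.204, -0.301 and -0.341 for HLA class I. Without replicate 2 of 1w5 nM 13 and 6 genes fell, and with the exchange 15 interferon genes fell and 1 rose.

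IFI6, a mitochondrial and endoplasmic reticulum protein of the antiviral response, went from 147, 136 and 126 in 1w5 nM to 29.8, 22.3 and 19.2 in 4w5 nM (log2 difference -2.54 ± 0.19 (SE), adjusted p = 1.71e-07). ISG15, a ubiquitin-like modifier, went from 291, 376 and 308 in 1w5 nM to 119, 93.1 and 104 in 4w5 nM (log2 difference -1.63 ± 0.18 (SE), adjusted p = 8.66e-06). APOBEC3B, a cytidine deaminase that acts on DNA, went from 84.6, 91.4 and 82.8 in 1w5 nM to 19.8, 23.4 and 18.1 in 4w5 nM (log2 difference -2.08 ± 0.24 (SE), adjusted p = 1.17e-05). BST2, tetherin, which holds budding viruses at the membrane, went from 61.7, 102 and 51.4 to 15.3, 25.8 and 25.5 with 1 late array under the floor (log2 -1.65, adjusted p = 0.000257). The 3 late arrays lay below the early ones for each of these 4 genes.

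HLA-B, a heavy chain of HLA class I, went from 2195, 2053 and 2085 in 1w5 nM to 395, 459 and 546 in 4w5 nM (log2 difference -2.19 ± 0.19 (SE), adjusted p = 5.88e-07). HLA-C, another heavy chain, went from 1979, 2161 and 1876 in 1w5 nM to 599, 539 and 640.4 in 4w5 nM (log2 difference -1.76 ± 0.14 (SE), adjusted p = 2.19e-07). HLA-F, a heavy chain of narrower tissue range, went from 1737, 1916 and 1792 in 1w5 nM to 427, 464 and 578 in 4w5 nM (log2 difference -1.90 ± 0.15 (SE), adjusted p = 2.19e-07). HLA-G fell by 2.01 (adjusted p = 3.58e-08). The probe sets of these genes share sequence, so that their signals may come in part from the same transcripts and are not independent. B2M, the light chain that all of them need at the cell surface, had 4802, 4083 and 4943 in 1w5 nM and 4213, 4038 and 4482 in 4w5 nM and did not pass the test (log2 -0.12, adjusted p = 0.262), and the peptide transporter subunits TAP1 (log2 0.08, adjusted p = 0.809) and TAP2 (log2 0.26, adjusted p = 0.233) did not either. IFI16, an interferon-induced DNA sensor, had 386, 536 and 420.4 against 639.8, 540.2 and 686 (adjusted p = 0.0791).

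The promoters of 4 of the genes that fell are printed to show the element itself, read from RefSeq on GRCh38.p14 as 100 bases 5′ to 3′ on the strand of the gene, with matches to the element, searched as GAAA and GAAA with any 2 bases between them, on either strand in capitals; overlapping matches run together. The windows are chr1:27672263-27672362 (IFI6, minus strand), chr1:1013342-1013441 (ISG15, plus strand), chr19:17405703-17405802 (BST2, minus strand) and chr6:29723233-29723332 (HLA-F, plus strand), all within 250 bases before the start of the gene.
IFI6: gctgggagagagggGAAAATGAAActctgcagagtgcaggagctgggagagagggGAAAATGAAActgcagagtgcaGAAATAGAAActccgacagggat
ISG15: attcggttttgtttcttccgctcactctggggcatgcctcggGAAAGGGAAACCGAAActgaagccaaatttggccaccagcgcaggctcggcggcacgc
BST2: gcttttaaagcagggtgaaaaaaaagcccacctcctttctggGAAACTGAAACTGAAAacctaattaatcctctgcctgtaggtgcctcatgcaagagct
HLA-F: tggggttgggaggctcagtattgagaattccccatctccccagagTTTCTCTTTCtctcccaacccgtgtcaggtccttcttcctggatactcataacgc

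IFI6 holds 3 such matches in its window, ISG15 and BST2 hold 2 overlapping ones each, and HLA-F holds 1 on the opposite strand. Of 27305 promoters in the table, 839 (3.07%) held the element in the 250 bases before the start, and of the 7483 genes tested that had a promoter there, 186 (2.49%). In the HLA class I list, 6 of 13 promoters held it (HLA-F, B2M, TAP1, TAP2, TAPBP and PSMB10), of which HLA-F and TAPBP fell and B2M, TAP1, TAP2 and PSMB10 were not called. Only 20 of the 29 interferon genes (69.0%) had a promoter in the table, so a share over that list is void. Among these, IFI44, IFI44L and IFIT3 held the element and were not called. A match is a description of the letters and not of a bound factor.

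Among targets of ATF4 and CHOP rises far outnumbered falls. Of 27 measured, 14 rose, 7 of them at least 2-fold, and 1 fell, with a median of 0.59. CHAC1, which degrades glutathione, went from 119, 131 and 121 in 1w5 nM to 271, 402 and 392 in 4w5 nM (log2 difference 1.50 ± 0.18 (SE), adjusted p = 1.65e-05). ATF3, a transcription factor of the stress response, went from 99.1, 109.8 and 100.01 in 1w5 nM to 205, 236 and 323 in 4w5 nM (log2 difference 1.28 ± 0.16 (SE), adjusted p = 2.6e-05). PSPH, the last enzyme of serine synthesis, went from 134, 89.9 and 117 in 1w5 nM to 262, 273 and 317 in 4w5 nM (log2 difference 1.34 ± 0.20 (SE), adjusted p = 0.000115). STC2, a secreted glycoprotein of endoplasmic reticulum stress, went from 118, 116 and 98.4 in 1w5 nM to 214, 266 and 637 in 4w5 nM (log2 difference 1.58 ± 0.35 (SE), adjusted p = 0.00184).

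These 4 genes were raised on all 3 later arrays, and ATF3, PSPH and STC2 were highest on the third. ASNS, asparagine synthetase, chosen here after its values were seen because its promoter is shown, went from 568, 561 and 621 to 854.7, 1325 and 1825 (log2 1.13, adjusted p = 0.00138). NUPR1, a chromatin-associated stress protein, was the gene of the list that fell (log2 difference -0.96 ± 0.19 (SE), adjusted p = 0.000713). DDIT3, which codes for CHOP itself, had 549.7, 405 and 470.2 in 1w5 nM and 318, 385 and 1371 in 4w5 nM and did not pass the test (log2 0.23, adjusted p = 0.762). Its groups overlapped, with the third late array alone above all others.

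The promoters of 3 genes that rose carry the 8-letter element that C/EBP and ATF dimers read, TGATGNAA, shown in capitals on either strand in windows of 100 bases (GRCh38.p14, RefSeq): chr15:40953221-40953320 (CHAC1, plus strand), chr1:212565170-212565269 (ATF3, plus strand) and chr7:97872423-97872522 (ASNS, minus strand).
CHAC1: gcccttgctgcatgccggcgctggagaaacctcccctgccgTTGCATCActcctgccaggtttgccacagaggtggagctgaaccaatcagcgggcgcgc
ATF3: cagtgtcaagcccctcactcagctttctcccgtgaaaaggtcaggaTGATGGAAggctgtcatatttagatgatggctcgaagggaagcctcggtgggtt
ASNS: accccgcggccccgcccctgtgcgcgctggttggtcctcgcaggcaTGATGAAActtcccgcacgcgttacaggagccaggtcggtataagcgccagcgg

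Of all 27305 promoters 870 (3.19%) held TGATGNAA in the 250 bases before the start, of those of genes tested 116 of 7483 (1.55%), and of this list 4 of 23. The fourth was HERPUD1, which went from 331, 229 and 304 to 269, 345 and 1077 and was not called (adjusted p = 0.135).

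The size of this rise differed between the late arrays and was largest on the third. Relative to the mean of 1w5 nM, the list medians of the 3 late arrays were 0.21, 0.401 and 1.12 on the log2 scale. The same array stood apart for the 22 chaperones and folding enzymes of the endoplasmic reticulum (0.035, 0.111 and 0.932), the 17 aminoacyl-tRNA synthetases (0.0178, 0.178 and 0.505) and, downwards, for the 26 genes of cholesterol and fatty acid synthesis (0.258, 0.419 and -0.273), the 33 proteasome subunits (0.188, 0.225 and -0.341) and the 14 tubulins (-0.102, 0.0584 and -1.15). Without it, 11 ATF4 targets rose and 3 fell (median 0.305). HSP90B1, the chaperone GRP94, shows the pattern in 1 gene, with 572, 432 and 622 in 1w5 nM and 874, 812 and 2035 in 4w5 nM (log2 1.08, adjusted p = 0.0111, which was 0.0666 at most with an array left out).

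Of the 22 endoplasmic reticulum genes, 3 rose and none fell, ERO1A (log2 difference 1.11 ± 0.15 (SE), adjusted p = 3.36e-05), which makes disulphide bonds, being higher on all 3 late arrays (254, 216 and 211 against 118, 91.8 and 106). Of the aminoacyl-tRNA synthetases 4 rose, TARS1 (log2 difference 0.69 ± 0.16 (SE), adjusted p = 0.00297) the most, and 2 fell, HARS1 (log2 difference -0.46 ± 0.12 (SE), adjusted p = 0.00825) and VARS1 (log2 -0.55, adjusted p = 0.026). Among 22 cytosolic heat shock genes 7 rose and 1 fell, HSPB1 going from 1672, 2219 and 1793 to 1150.3, 1263 and 426 (adjusted p = 0.00314). Of the 7, 1 was called without replicate 2 of 1w5 nM. In sterol and fatty acid synthesis, 4 of 26 rose, among them SCD (log2 difference 0.73 ± 0.14 (SE), adjusted p = 0.00092), the desaturase of stearate, and INSIG1, with 303, 262 and 364 against 951, 853 and 272 (adjusted p = 0.0429), and 2 fell. Proteasome subunits numbered 4 higher and 2 lower of 33, with PSMD10 (log2 difference 0.70 ± 0.11 (SE), adjusted p = 0.00014) among the risers. The shares called higher were 13.6% for the endoplasmic reticulum, 15.4% for sterol and fatty acid synthesis and 12.1% for the proteasome. All were below the 20.4% over all genes. Aminoacyl-tRNA synthetases had 23.5% higher and heat shock genes 31.8%. In each of these lists the share called lower was under the 17.3% over all genes.

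**Figure D2:**
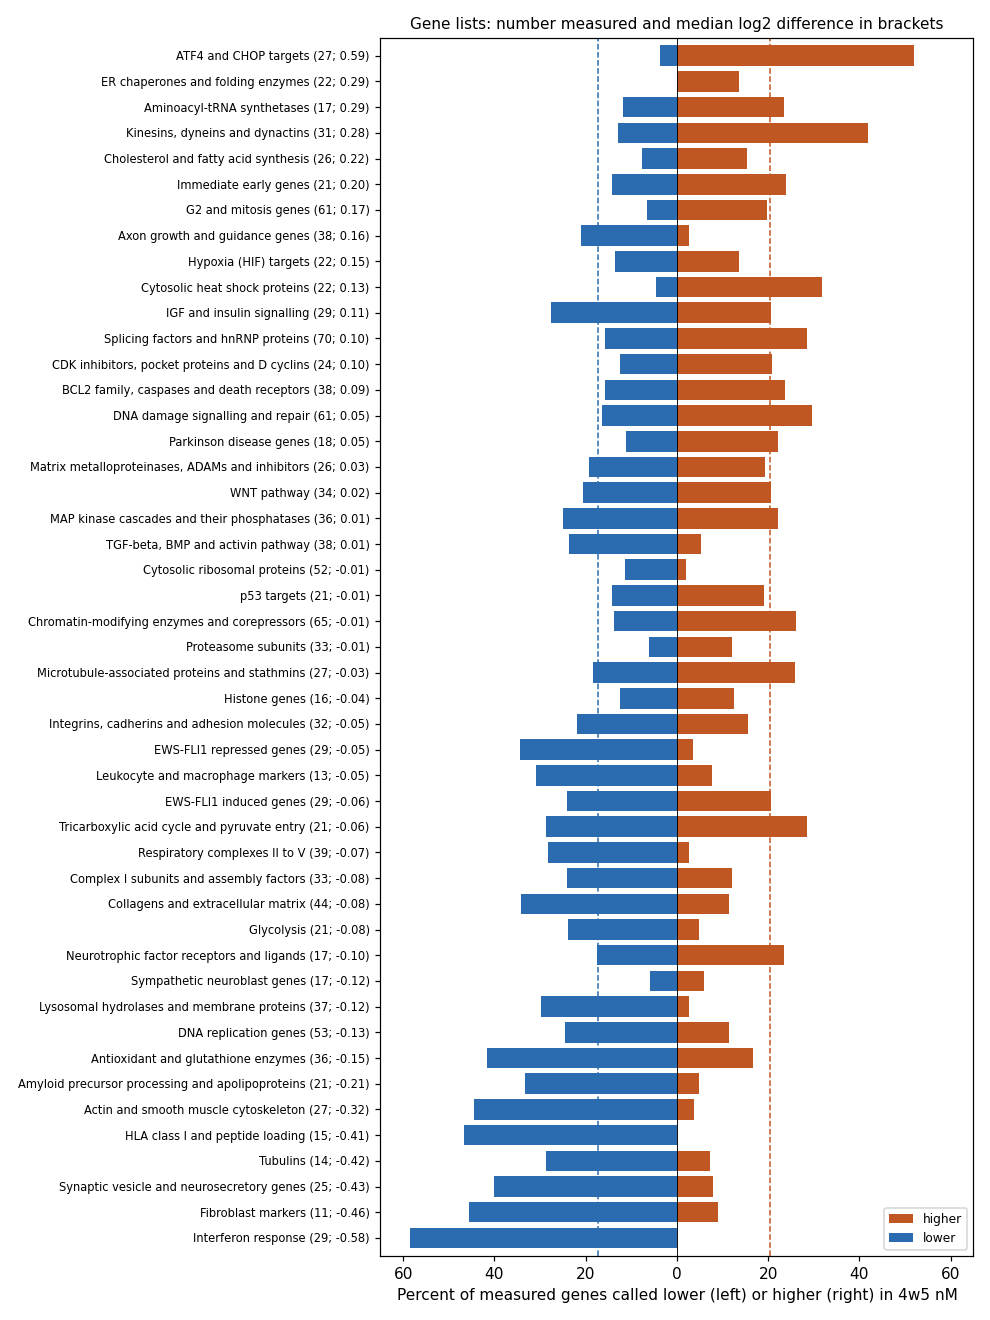
Percent of the measured genes of each list of 11 or more that were higher (orange, right) or lower (blue, left) in 4w5 nM at an adjusted p below 0.05, with the number measured and the median log2 difference in brackets; dashed lines mark the shares over all genes, 20.4% and 17.3%. ATF4 and CHOP targets (14 of 27) and kinesin, dynein and dynactin genes (13 of 31) reach furthest right, and interferon response (17 of 29) and HLA class I genes (7 of 15) furthest left.

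Genes of the respiratory chain changed little and mostly downwards. Complex I, the target of rotenone, had 4 of 33 subunits and assembly factors higher and 8 lower, none by 2-fold (median -0.08). NDUFA13, an accessory subunit, went from 2503, 2794 and 2506 in 1w5 nM to 1714, 1983 and 1565 in 4w5 nM (log2 difference -0.57 ± 0.09 (SE), adjusted p = 0.000191). NDUFA5, another accessory subunit, went from 988, 859 and 873 in 1w5 nM to 1488, 1356 and 1332 in 4w5 nM (log2 difference 0.62 ± 0.10 (SE), adjusted p = 0.000253). NDUFAF3, an assembly factor, fell by 0.84 (adjusted p = 0.00859) and TMEM126B, another, rose by 0.65 (adjusted p = 0.00117). In complexes II to V, 11 of 39 fell and 1 rose, again none by 2-fold (median -0.07), the largest being UQCRC1 (log2 difference -0.71 ± 0.15 (SE), adjusted p = 0.00119) of complex III and, upwards, SDHD (log2 difference 0.56 ± 0.15 (SE), adjusted p = 0.00857) of complex II. Without the third array of 4w5 nM these medians were 0.00648 and 0.00311.

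In pyruvate entry and the tricarboxylic acid cycle 6 of 21 rose and 6 fell (28.6% each, against 20.4% and 17.3% over all genes). Besides OGDHL, its relative OGDH fell (log2 difference -0.90 ± 0.17 (SE), adjusted p = 0.000727) and so did PDHA1 (log2 difference -0.58 ± 0.13 (SE), adjusted p = 0.00204), the catalytic subunit of pyruvate dehydrogenase. Of the other subunits of that complex, DLAT rose from 229, 229.6 and 258 to 483, 439 and 387 (log2 difference 0.86 ± 0.21 (SE), adjusted p = 0.00336), and PDHX (log2 difference 0.74 ± 0.16 (SE), adjusted p = 0.00145) and DLD (log2 difference 0.37 ± 0.12 (SE), adjusted p = 0.0204) rose too. PDHB had 844, 923 and 959.6 in 1w5 nM and 771, 785 and 578 in 4w5 nM and did not pass the test (adjusted p = 0.116). The other rises included SUCLA2 (log2 difference 1.00 ± 0.16 (SE), adjusted p = 0.000141) of succinyl-CoA synthetase and the cytosolic IDH1 (log2 difference 0.77 ± 0.15 (SE), adjusted p = 0.000647). Of 21 glycolysis genes 5 fell and 1 rose. HK2 rose (log2 difference 0.48 ± 0.15 (SE), adjusted p = 0.0175) while HK1 (log2 difference -0.81 ± 0.25 (SE), adjusted p = 0.018) and GPI (log2 difference -0.73 ± 0.16 (SE), adjusted p = 0.00178) fell; without replicate 2 of 1w5 nM 1 glycolysis gene fell and none rose.

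Of 22 hypoxia genes 3 rose and 3 fell (13.6% each, against 20.4% and 17.3% over all genes). HIF1A, the oxygen-regulated transcription factor subunit, went from 1185, 1008 and 1116 in 1w5 nM to 1864, 1720.5 and 1791 in 4w5 nM (log2 difference 0.70 ± 0.09 (SE), adjusted p = 3.76e-05). EGLN1, the hydroxylase that marks HIF1A for degradation, went from 81.7, 56 and 79.4 in 1w5 nM to 165, 165 and 173 in 4w5 nM (log2 difference 1.23 ± 0.24 (SE), adjusted p = 0.000756). EPAS1, which codes for HIF-2alpha, fell from 121, 219 and 145 to 62, 26.8 and 64.7 (log2 difference -1.72 ± 0.41 (SE), adjusted p = 0.00379). VEGFA, a target of both factors, had 900.2, 754 and 880.5 against 1000.3, 961 and 1627 and did not pass the test (adjusted p = 0.0818).

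Antioxidant enzymes fell more often than they rose, 15 against 6 of 36 (median -0.15). After SELENBP1 the largest falls were in HMOX1, heme oxygenase 1, from 194, 129 and 188 to 89.3, 77.5 and 79.7 (log2 difference -1.03 ± 0.22 (SE), adjusted p = 0.00134), GSTK1 (log2 difference -0.94 ± 0.13 (SE), adjusted p = 4.33e-05) and MGST2 (log2 difference -0.72 ± 0.14 (SE), adjusted p = 0.00101), glutathione transferases. The rises were GCLM, the modifier subunit of the enzyme that limits glutathione synthesis, from 314, 201 and 281 to 717, 565 and 455 (log2 difference 1.13 ± 0.19 (SE), adjusted p = 0.00021), SELENOP (log2 difference 0.95 ± 0.16 (SE), adjusted p = 0.000244), a secreted selenium carrier, GSR (log2 difference 0.93 ± 0.32 (SE), adjusted p = 0.0314) and TXNRD1 (log2 difference 0.66 ± 0.15 (SE), adjusted p = 0.00223), the reductases of glutathione and thioredoxin, SOD3 (log2 0.59, adjusted p = 0.0264), the extracellular superoxide dismutase, and PRDX3 (log2 0.43, adjusted p = 0.0297), the mitochondrial peroxiredoxin. Of 37 lysosomal genes 11 fell and 1 rose. SMPD1, acid sphingomyelinase, went from 1293, 1524 and 1357 in 1w5 nM to 501, 449 and 468 in 4w5 nM (log2 difference -1.56 ± 0.27 (SE), adjusted p = 0.000347), followed by CTSA (log2 difference -0.92 ± 0.17 (SE), adjusted p = 0.000497) and GUSB (log2 difference -0.83 ± 0.13 (SE), adjusted p = 0.000107), while LIPA rose (log2 difference 0.39 ± 0.13 (SE), adjusted p = 0.0306).

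Genes of microtubule motors and their associated subunits rose more often than they fell, and tubulins the reverse. Of 31 kinesins, dyneins and dynactins, 13 rose and 4 fell (median 0.28), and the 3 late arrays had list medians of 0.302, 0.3 and 0.299. DYNC2H1, the heavy chain of the ciliary dynein, went from 149.8, 186 and 206 in 1w5 nM to 388, 344 and 641 in 4w5 nM (log2 difference 1.30 ± 0.32 (SE), adjusted p = 0.00462). KLC2, a kinesin light chain, went from 100.5, 178 and 145 in 1w5 nM to 305, 320.0 and 338 in 4w5 nM (log2 difference 1.22 ± 0.27 (SE), adjusted p = 0.00204). KIF16B, which carries early endosomes, went from 36.6, 40.9 and 43 in 1w5 nM to 71.1, 71.2 and 146 in 4w5 nM (log2 difference 1.17 ± 0.25 (SE), adjusted p = 0.00151). DCTN6 also rose (log2 difference 1.10 ± 0.29 (SE), adjusted p = 0.0075), whereas other dynactin and dynein subunits fell, DCTN1 (log2 difference -0.48 ± 0.18 (SE), adjusted p = 0.0436), DCTN3 (log2 difference -0.48 ± 0.11 (SE), adjusted p = 0.00283), DYNLRB1 (log2 difference -0.49 ± 0.10 (SE), adjusted p = 0.00154) and DYNC1LI2 (log2 difference -0.58 ± 0.16 (SE), adjusted p = 0.00988).

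Of 14 tubulins 4 fell and 1 rose, with a median of -0.42 that came mostly from the third late array. TUBB4A, a beta-tubulin of neurons, went from 347, 444 and 432 to 179.6, 217 and 97.5 (log2 difference -1.38 ± 0.34 (SE), adjusted p = 0.00462), and TUBA4A from 581, 936 and 701 to 502, 513 and 187 (log2 difference -0.996 ± 0.31 (SE), adjusted p = 0.0164). Without that array 2 fell and the median was -0.0384, and with the exchange 1 fell. Among 27 microtubule-associated proteins 7 rose (25.9%) and 5 fell (18.5%), against 20.4% and 17.3% over all genes. SPAST, spastin, which severs microtubules, went from 179, 211 and 219.5 in 1w5 nM to 439.8, 396 and 597 in 4w5 nM (log2 difference 1.22 ± 0.27 (SE), adjusted p = 0.00234). APC, which caps growing ends and also scaffolds beta-catenin breakdown, went from 149.5, 169.8 and 175 in 1w5 nM to 437, 318 and 402 in 4w5 nM (log2 difference 1.21 ± 0.15 (SE), adjusted p = 2.42e-05). DCX, doublecortin, found in migrating neurons, went from 355, 382 and 303 in 1w5 nM to 177, 98.3 and 66.1 in 4w5 nM (log2 difference -1.72 ± 0.36 (SE), adjusted p = 0.00149). TPPP, which bundles microtubules, lay below the floor on every 4w5 nM array after 43.3, 56.6 and 34.2 in 1w5 nM, a fall of at least 2.74-fold (adjusted p = 0.000137).

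Genes of the cell cycle moved in both directions. The inhibitor CDKN1B was described above; with it rose CCNG2 from 340.0, 269 and 319.7 to 609, 634 and 884 (log2 difference 1.18 ± 0.34 (SE), adjusted p = 0.012), TOB1 from 78.2, 93.3 and 80.5 to 180.2, 162 and 213 (log2 difference 1.14 ± 0.17 (SE), adjusted p = 8.29e-05), and RBL2 (log2 difference 0.89 ± 0.14 (SE), adjusted p = 0.000138), the pocket protein p130, which are known to hold back the cycle. CDK4 fell by 0.41 (adjusted p = 0.000826). In all, 5 of 24 genes of this list rose (20.8%, near the share over all genes) and 3 fell (12.5%, against 17.3%). The others were E2F5 upwards and CCND3 and BTG1 downwards. Another probe set of BTG1 had the opposite call. Of 61 genes of G2 and mitosis 12 rose (19.7%, near the 20.4% over all genes) and 4 fell (6.56%, against 17.3%), with a median of 0.17. HMMR, a spindle protein, went from 342, 345 and 298 in 1w5 nM to 951, 975 and 908 in 4w5 nM (log2 difference 1.53 ± 0.42 (SE), adjusted p = 0.00917). KIF18A, a kinesin that aligns chromosomes, went from 207, 197 and 187 in 1w5 nM to 518, 450.0 and 324 in 4w5 nM (log2 difference 1.10 ± 0.21 (SE), adjusted p = 0.000731), and INCENP rose as well (log2 difference 1.07 ± 0.28 (SE), adjusted p = 0.00644). CDC25A, the phosphatase that opens the way into S phase, fell from 538, 774 and 566 to 477, 382 and 152 (log2 difference -1.03 ± 0.31 (SE), adjusted p = 0.0157). Without the third late array 17 rose and 2 fell.

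Of 53 DNA replication genes 13 fell and 6 rose, none by 2-fold (median -0.13). LIG1, which joins Okazaki fragments (log2 difference -0.95 ± 0.20 (SE), adjusted p = 0.00129), POLD1, the catalytic subunit of polymerase delta (log2 difference -0.86 ± 0.16 (SE), adjusted p = 0.000559), and CCNE1 (log2 difference -0.72 ± 0.20 (SE), adjusted p = 0.00829) fell, and the origin recognition subunits ORC2 (log2 difference 0.88 ± 0.15 (SE), adjusted p = 0.000281) and ORC4 (log2 difference 0.79 ± 0.13 (SE), adjusted p = 0.0002) rose. This balance rested on the third array of 4w5 nM, and without it 8 rose and 8 fell (median 0.126).

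DNA damage and repair genes had 18 of 61 higher (29.5%, against 20.4% over all genes) and 10 lower (16.4%, near the 17.3% over all genes). WRN, a helicase, went from 177, 154 and 181 in 1w5 nM to 445, 404 and 568 in 4w5 nM (log2 difference 1.46 ± 0.29 (SE), adjusted p = 0.00087). FANCF, a subunit of the Fanconi anaemia complex, went from 73.7, 65.8 and 67.8 in 1w5 nM to 159, 173 and 171 in 4w5 nM (log2 difference 1.28 ± 0.21 (SE), adjusted p = 0.000192). REV3L, the catalytic subunit of polymerase zeta, went from 137, 153 and 129 in 1w5 nM to 321, 251 and 309.8 in 4w5 nM (log2 difference 1.07 ± 0.14 (SE), adjusted p = 4.09e-05). All 3 late arrays of these genes lay above all early ones. MRE11, a nuclease at broken ends, went from 152, 192 and 192 in 1w5 nM to 361, 391 and 361 in 4w5 nM (log2 difference 1.06 ± 0.16 (SE), adjusted p = 8.51e-05). The falls were led by POLH (log2 difference -1.13 ± 0.15 (SE), adjusted p = 2.96e-05), polymerase eta, and RAD54L (log2 difference -1.12 ± 0.22 (SE), adjusted p = 0.000894); RAD1 also fell (log2 difference -1.11 ± 0.17 (SE), adjusted p = 0.000126) but 2 other probe sets of this gene were called higher. Of 21 p53 targets 4 rose, PERP (log2 difference 1.59 ± 0.48 (SE), adjusted p = 0.0144), MDM2 (log2 difference 0.94 ± 0.21 (SE), adjusted p = 0.00246), PMAIP1 (log2 difference 0.85 ± 0.20 (SE), adjusted p = 0.00292) and PPM1D (log2 difference 0.67 ± 0.20 (SE), adjusted p = 0.0153), and 3 fell. Of 38 genes of the BCL2 family, caspases and death receptors 9 rose, with BIRC2 (log2 difference 0.95 ± 0.23 (SE), adjusted p = 0.00439) and BCL2L13 (log2 difference 0.87 ± 0.17 (SE), adjusted p = 0.000855) first, and 6 fell, with TRADD (log2 difference -1.14 ± 0.14 (SE), adjusted p = 2.23e-05), the adaptor of the tumour necrosis factor receptor, and CASP10 (log2 difference -1.05 ± 0.19 (SE), adjusted p = 0.000434) first. This list thus had 23.7% higher and 15.8% lower. Its shares and those of the p53 targets were near the 20.4% and 17.3% over all genes.

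In insulin and IGF signalling, 6 of 29 genes rose (20.7%) and 8 fell (27.6%), against 20.4% and 17.3% over all genes. IRS1, the adaptor of the insulin and IGF1 receptors, went from 68.9, 92.3 and 96.8 in 1w5 nM to 238, 226 and 351.2 in 4w5 nM (log2 difference 1.65 ± 0.25 (SE), adjusted p = 0.000108). PIK3CB, a catalytic subunit of phosphoinositide 3-kinase, went from 121, 118 and 123 in 1w5 nM to 276, 239 and 292 in 4w5 nM (log2 difference 1.15 ± 0.17 (SE), adjusted p = 0.0001). IGFBP4, a secreted binding protein, went from 1001, 1153 and 1041 in 1w5 nM to 399, 439.9 and 261 in 4w5 nM (log2 difference -1.57 ± 0.33 (SE), adjusted p = 0.00134). PIK3CD went the other way from PIK3CB, from 119, 121 and 125 to 50.5, 46.6 and 47 (log2 difference -1.34 ± 0.16 (SE), adjusted p = 1.42e-05), and AKT1 fell from 604, 892 and 696 to 424, 404 and 308 (log2 difference -0.94 ± 0.15 (SE), adjusted p = 0.000204). IGF1R had 169, 238 and 180.3 against 229, 267 and 502, with overlap between the groups (log2 difference 0.69 ± 0.25 (SE), adjusted p = 0.0383).

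In the MAP kinase cascades 8 of 36 rose (22.2%, again near the share over all genes) and 9 fell, against 17.3% lower over all genes. MAPK12, p38gamma, went from 174, 221 and 192 in 1w5 nM to 72.5, 61.5 and 61.7 in 4w5 nM (log2 difference -1.58 ± 0.14 (SE), adjusted p = 1.04e-06), and MAPK11, p38beta, fell with it (log2 difference -1.36 ± 0.21 (SE), adjusted p = 0.000137). MAPK6, the atypical kinase ERK3, went from 1203, 878 and 881 in 1w5 nM to 2414, 2255 and 2765 in 4w5 nM (log2 difference 1.34 ± 0.18 (SE), adjusted p = 3.12e-05). MAP2K4, which activates JNK and p38, went from 143, 128 and 113 in 1w5 nM to 298, 298 and 276 in 4w5 nM (log2 difference 1.19 ± 0.18 (SE), adjusted p = 9.48e-05). MAPK9, JNK2, also rose (log2 difference 0.94 ± 0.16 (SE), adjusted p = 0.000317).

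Of 34 WNT pathway genes 7 rose and 7 fell (20.6% each, near the shares over all genes). The receptors FZD3 (log2 difference 1.32 ± 0.26 (SE), adjusted p = 0.000884) and FZD6 (log2 difference 0.99 ± 0.22 (SE), adjusted p = 0.00195) and the effector LEF1 (log2 difference 1.03 ± 0.22 (SE), adjusted p = 0.00165) rose, and FRZB (log2 difference -1.49 ± 0.19 (SE), adjusted p = 2.26e-05), a secreted inhibitor, fell from 64.4, 70.7 and 77.9 to 29.3, 25.9 and 20.9. In the TGF-beta and BMP pathway 9 of 38 fell and 2 rose. TGFB1 fell from 1439, 1721 and 1653 to 765, 851 and 771 (log2 difference -1.01 ± 0.17 (SE), adjusted p = 0.000254), and its induced matrix protein TGFBI (log2 difference -1.34 ± 0.17 (SE), adjusted p = 2.23e-05) fell, as did the BMP inhibitor CHRDL1 (log2 difference -1.47 ± 0.33 (SE), adjusted p = 0.00207), while SMAD4 rose (log2 difference 0.92 ± 0.18 (SE), adjusted p = 0.000675). Of 21 immediate early genes 5 rose, among them JUN (log2 difference 0.49 ± 0.17 (SE), adjusted p = 0.0272) and MYC (log2 difference 0.46 ± 0.11 (SE), adjusted p = 0.00452), and 3 fell, JUNB (log2 difference -1.09 ± 0.17 (SE), adjusted p = 0.000154) the most. That is 23.8% and 14.3%, near the shares over all genes.

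Synaptic and neurosecretory genes fell more often than they rose. In that list of 25 genes 10 fell and 2 rose (median -0.43). NMU, the peptide neuromedin U, went from 169, 234 and 208 in 1w5 nM to 45.6, 44.5 and 50.3 in 4w5 nM (log2 difference -2.11 ± 0.18 (SE), adjusted p = 4.56e-07). GAL, the peptide galanin, went from 256, 259 and 248 in 1w5 nM to 140.4, 111 and 54.9 in 4w5 nM (log2 difference -1.42 ± 0.23 (SE), adjusted p = 0.000182). SYT1, the calcium sensor of vesicle release, went from 199, 222 and 229 in 1w5 nM to 103, 101 and 89.6 in 4w5 nM (log2 difference -1.14 ± 0.14 (SE), adjusted p = 2.05e-05). SYNJ1, a phosphatase that works with auxilin in uncoating, rose from 63.9, 101 and 78.5 to 210.5, 182 and 145 (log2 difference 1.15 ± 0.38 (SE), adjusted p = 0.025), as did SGCE (log2 difference 0.90 ± 0.26 (SE), adjusted p = 0.0117). The call of SYNJ1 ended under 7 alternatives, among them quantile normalization and the mean of all probe sets (highest adjusted p = 0.44). Of 38 axon growth and guidance genes 8 fell and 1 rose, with SLIT2 (log2 difference -0.996 ± 0.12 (SE), adjusted p = 2.26e-05), PLXNA2 (log2 difference -1.51 ± 0.21 (SE), adjusted p = 5.72e-05), NRP2 (log2 difference -0.99 ± 0.17 (SE), adjusted p = 0.000368) and CRMP1 (log2 difference -0.96 ± 0.16 (SE), adjusted p = 0.000201) down and EPHA7 (log2 difference 0.80 ± 0.25 (SE), adjusted p = 0.0189) up. The median of that list was above 0 all the same (0.16), as most of its genes were not called.

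Of 17 neurotrophic factors and receptors 4 rose, with LIFR first, and 3 fell, FGF18 (log2 difference -1.58 ± 0.25 (SE), adjusted p = 0.00014), FGFR3 (log2 difference -1.22 ± 0.24 (SE), adjusted p = 0.000885) and MDK (log2 difference -1.20 ± 0.22 (SE), adjusted p = 0.000589), each over 2-fold. RET (log2 difference 0.60 ± 0.21 (SE), adjusted p = 0.0335), the receptor of the GDNF family, and NTRK3 (log2 difference 0.58 ± 0.18 (SE), adjusted p = 0.0184) rose. The neurotrophic list thus had 23.5% higher and 17.6% lower, near the 20.4% and 17.3% over all genes. Of 17 genes of sympathetic neuroblasts only RET rose and only DLK1 fell. Of 18 genes linked to Parkinson disease 4 rose, DNAJC6, SYNJ1, DNAJC13 (log2 difference 0.50 ± 0.14 (SE), adjusted p = 0.0104) and GIGYF2 (log2 difference 0.40 ± 0.12 (SE), adjusted p = 0.0159), and 2 fell, ATP13A2 (log2 difference -0.87 ± 0.26 (SE), adjusted p = 0.0141), a lysosomal pump, and MAPT (log2 difference -0.48 ± 0.12 (SE), adjusted p = 0.00601), tau. For the Parkinson disease list this makes 22.2% higher and 11.1% lower, against 20.4% and 17.3% over all genes. In this list SYNJ1, GIGYF2, ATP13A2 and MAPT each lost their call under at least 1 alternative. In amyloid precursor processing 7 of 21 fell (33.3%) and 1 rose (4.76%). APOE, the lipid carrier apolipoprotein E, went from 813, 1107 and 838 in 1w5 nM to 196, 171 and 303 in 4w5 nM (log2 difference -2.07 ± 0.28 (SE), adjusted p = 3.76e-05). APBB1, which binds the tail of the precursor, fell as well (log2 difference -0.97 ± 0.29 (SE), adjusted p = 0.015), while the precursor APP rose, with 1767, 1330.2 and 1355 against 2100.4, 1782 and 2388 (log2 difference 0.50 ± 0.19 (SE), adjusted p = 0.0439). The call of APP ended under 9 alternatives, among them the exchange, the mean of all probe sets and leaving out replicate 2 of 1w5 nM (highest adjusted p = 0.279). APBB2 fell too, but 2 of its other probe sets were called the other way.

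Of 65 chromatin genes 17 rose and 9 fell; HDAC4 was joined by ARID4B (log2 difference 1.10 ± 0.21 (SE), adjusted p = 0.000727), RCOR3 (log2 difference 1.10 ± 0.16 (SE), adjusted p = 8.84e-05), a corepressor of REST, and SIRT1 (log2 difference 1.08 ± 0.18 (SE), adjusted p = 0.000285), and the falls by CHD4 (log2 difference -0.68 ± 0.15 (SE), adjusted p = 0.00177) and KMT2B (log2 difference -0.80 ± 0.22 (SE), adjusted p = 0.00976). Of 70 splicing factors 20 rose and 11 fell, none by 2-fold, with the kinases CLK1 (log2 difference 0.95 ± 0.23 (SE), adjusted p = 0.00376) and CLK4 (log2 difference 0.82 ± 0.14 (SE), adjusted p = 0.000257) up and SF3A2 (log2 difference -0.78 ± 0.17 (SE), adjusted p = 0.00172) down. Chromatin genes were thus 26.2% higher and 13.8% lower and splicing factors 28.6% and 15.7%, against 20.4% and 17.3% over all genes. Of 52 ribosomal proteins 6 fell (11.5%) and 1 rose (1.92%), with a median of -0.01. Of 16 histone genes, whose transcripts mostly lack poly(A) tails, 2 rose and 2 fell, H1-2 from 350.6, 393 and 377 to 145, 133.1 and 114 (log2 difference -1.52 ± 0.16 (SE), adjusted p = 6.07e-06).

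Genes that mark other cell types passed the test in 4 of the 5 lists looked at. Of 13 leukocyte markers PTPRC rose and AIF1 (log2 difference -1.76 ± 0.51 (SE), adjusted p = 0.0121), CORO1A (log2 difference -1.22 ± 0.27 (SE), adjusted p = 0.00192), ITGB2 (log2 difference -0.97 ± 0.32 (SE), adjusted p = 0.0223) and CD79A (log2 difference -0.64 ± 0.23 (SE), adjusted p = 0.0391) fell, and CD14, CD3D and LYZ were at or near the floor; without replicate 2 of 1w5 nM 1 fell and none rose. Of 11 fibroblast markers 5 fell, among them PDGFRB (log2 difference -1.35 ± 0.22 (SE), adjusted p = 0.000183) and FAP (log2 difference -1.01 ± 0.15 (SE), adjusted p = 7.44e-05), LUM rose, and COL3A1 (832 to 998 in 1w5 nM, 1098 to 1297 in 4w5 nM) and DCN (664 to 871, then 918 to 1216) did not pass the test. Of 7 epithelial markers 3 fell, KRT8 from 199, 198 and 199 to 43.1, 36.4 and 45.2 (log2 difference -2.26 ± 0.19 (SE), adjusted p = 5.16e-07), KRT18 (log2 difference -1.01 ± 0.15 (SE), adjusted p = 9.09e-05) and ELF3 (log2 difference -1.06 ± 0.14 (SE), adjusted p = 2.97e-05), and CDH1 and KRT19 stayed under the floor. None of 5 endothelial markers was called. Of the 3 glial markers measured, S100B fell from 271, 348 and 328 to 120.3, 115 and 77.5 (log2 difference -1.62 ± 0.21 (SE), adjusted p = 3.18e-05), SLC1A3 rose from 113, 109.7 and 119 to 277, 258 and 532 (log2 difference 1.56 ± 0.21 (SE), adjusted p = 4.1e-05), and FABP7 rose with overlap between the groups (38.9, 47.4 and 30.7, then 215, 119 and 44.7; adjusted p = 0.01). The part of such cells in the matrix and interferon results was not tested.

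A set of genes had been picked on these arrays for qRT-PCR, so that its calls are no independent evidence of direction. Of these, 13 were tested here and 7 passed. PTPRC, IGF1R, MAP2K4 and CLIC2 rose, and LOXL1, APOE and SELENBP1 fell. CLIC2, an intracellular chloride channel protein, went from 77.7, 95.5 and 93.3 in 1w5 nM to 262, 242 and 216 in 4w5 nM (log2 difference 1.43 ± 0.41 (SE), adjusted p = 0.0106). DDIT3, FN1, IFI16 and VEGFA, described above, SYNJ2 (134, 242 and 158, then 157, 105 and 88.1, adjusted p = 0.182), a phosphoinositide phosphatase, and GFRA2 (347, 388 and 418, then 504, 591 and 732, adjusted p = 0.452), the neurturin receptor, did not pass. Among these, FN1, IFI16, VEGFA and GFRA2 had no overlap between the times, as the test also takes in the spread of the groups not compared.

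Vehicle cells, whose hybridization controls did not dim at 4 weeks, had fewer called changes over the same weeks, and many of the genes called at 5 nM had the opposite sign. At 2-fold, 80 genes rose (0.873%) and 13 fell (0.142%) from 1w0 nM to 4w0 nM. At any size of change, 264 genes rose (2.88%) and 66 fell (0.72%). Of the 375 genes that rose at 5 nM, 1 rose in vehicle cells and 21 fell (5.6%), and of the 316 that fell, none fell in vehicle cells and 83 rose (26.3%). Over 9162 genes the 2 time changes had r = -0.419, a description across genes that share the platform but no array. LGALS1 rose by 2.61 in vehicle cells (adjusted p = 7.93e-08) where it fell at 5 nM, DLK1 rose by 2.48 (adjusted p = 3.25e-05), and HLA-B rose by 1.16 (adjusted p = 0.00167). The vehicle change of ATF4 targets had a median of -0.46 and that of interferon genes 0.25, again opposite to 5 nM.

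The difference between the 2 time changes was tested in the same fit. It was positive by at least 2-fold for 629 genes (6.87%) and negative for 741 (8.09%), and at any size for 1392 (15.2%) and 1600 (17.5%). Of the 375 risers 315 (84.0%) were called positive and of the 316 fallers 305 (96.5%) negative, their 5 nM arrays being part of both. NPTX2 had the most negative difference, -6.69 ± 0.67 (SE), with a vehicle rise of 3.74, and FABP7 the most positive, 3.81 ± 0.58. Without replicate 2 of 1w5 nM the 2-fold counts were 599 and 659, and with the exchange 724 and 696. The counts moved from 509 to 942 positive with a 1-week vehicle array left out (replicate 2 and replicate 3), and scaling all arrays to 1 median gave 850 positive and 554 negative, which turned the share of positive differences from 45.9% to 60.5% and shifted the median of all genes from -0.0475 to 0.0802. In vehicle cells the lowest correlation between arrays of a group was 0.9139, at 1 week.

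**Figure D3:**
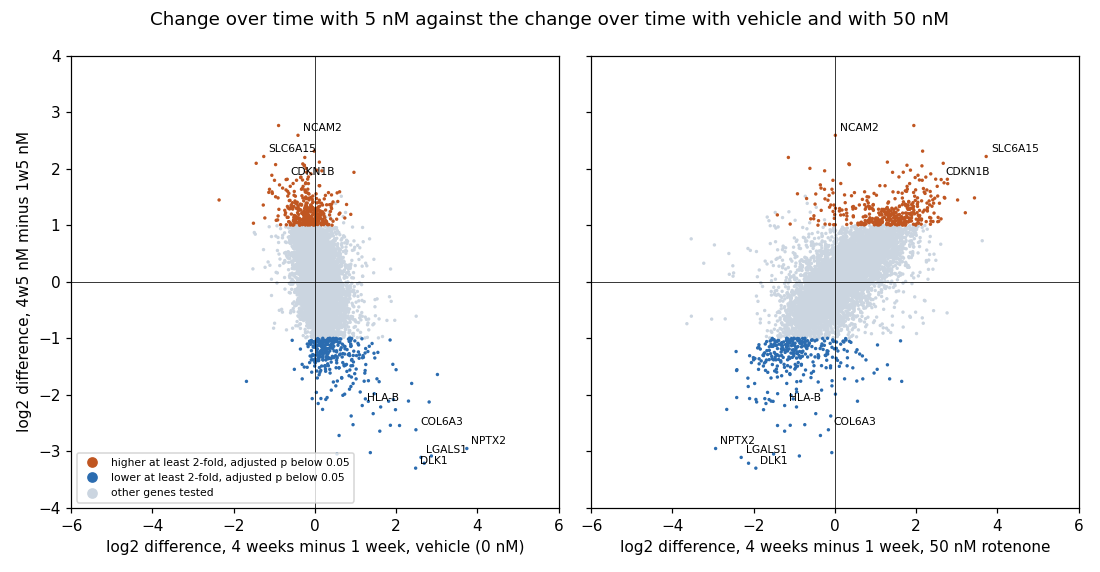
Log2 difference of 4 weeks minus 1 week at 5 nM (vertical axis) against the same difference in vehicle cells (left, horizontal axis) and at 50 nM (right, horizontal axis), each point 1 of 9162 genes, orange and blue marking genes higher or lower at least 2-fold at 5 nM. The coloured genes lean to the opposite side in vehicle cells (r = -0.419) and to the same side at 50 nM (r = 0.672).

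Cells given 50 nM changed over the same weeks mostly in the same direction as those given 5 nM, and their hybridization controls dimmed likewise. From 1w50 nM to 4w50 nM 1092 genes rose at least 2-fold (11.9%) and 419 fell (4.57%), and at any size 2794 rose (30.5%) and 1895 fell (20.7%). Of the 375 genes that rose at 5 nM 303 also rose at 50 nM at any size (80.8%) and 2 fell, and of the 316 that fell 230 fell (72.8%) and 7 rose. Shared 2-fold changes were 263 upwards (70.1% of the 5 nM set, 24.1% of the 50 nM set) and 162 downwards (51.3% and 38.7%). SLC6A15 rose by 3.72 at 50 nM and CDKN1B by 2.62, both more than at 5 nM (difference 1.51, adjusted p = 0.0186, and 0.81, adjusted p = 0.0323). COL6A3 changed by -0.16 at 50 nM (adjusted p = 0.616) and NCAM2 by 0.01 (adjusted p = 0.988), and their differences between doses were 2.46 (adjusted p = 0.0023) and -2.58 (adjusted p = 0.0175).

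The test of the difference between doses was positive by at least 2-fold, with 50 nM the higher, for 354 genes (3.86%) and negative for 88 (0.96%). AIF1 fell at 5 nM and rose by 1.64 at 50 nM (3.41, adjusted p = 0.00937), and EPAS1 likewise rose by 1.35 (3.07, adjusted p = 0.00551). ZIC1 rose at 5 nM and had -1.15 at 50 nM (adjusted p = 0.0888; difference -3.34, adjusted p = 0.0134). HSPB8, GFRA2 and BACE2, not called at 5 nM, had log2 changes of -3.54, -2.97 and -2.60 at 50 nM (adjusted p of the differences 0.0371, 0.0196 and 0.0202). These counts rest on the labels of the 1-week arrays more than any other in the comparison: with the exchange they were 81 and 30, without replicate 2 of 1w5 nM 234 and 31, and without replicate 1 of 4w50 nM 195 and 28.

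Over all genes, long ones rose and short ones fell more often than the reverse. Genes higher at least 2-fold at 4 weeks had a median length of 60.5 kb, those lower 15.6 kb, and all genes tested 30.8 kb, as annotated on GRCh38.p14. Genes were put into 4 length classes of equal size. In the shortest class, up to 12.4 kb, 9.69% rose and 25.3% fell (median log2 -0.15), and in the longest class, from 75.4 kb, 28.7% rose and 252 of 2290 fell (median 0.18). The other two lay between, with medians of -0.02 and 0.11. The order of the medians held within each of 3 groups of genes of like mean signal. In the brightest group they went from -0.10 in the shortest class to 0.32 in the longest, in the middle group from -0.20 to 0.28, and in the lowest from -0.17 to -0.01. In that lowest group even the longest class had more falls than rises (15.7% against 14.2%). The 50 nM change had the same order (-0.15, -0.03, 0.17 and 0.25) and the vehicle change fell slightly from the shorter to the longer classes (0.08, 0.08, 0.06 and 0.02).

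**Figure D4:**
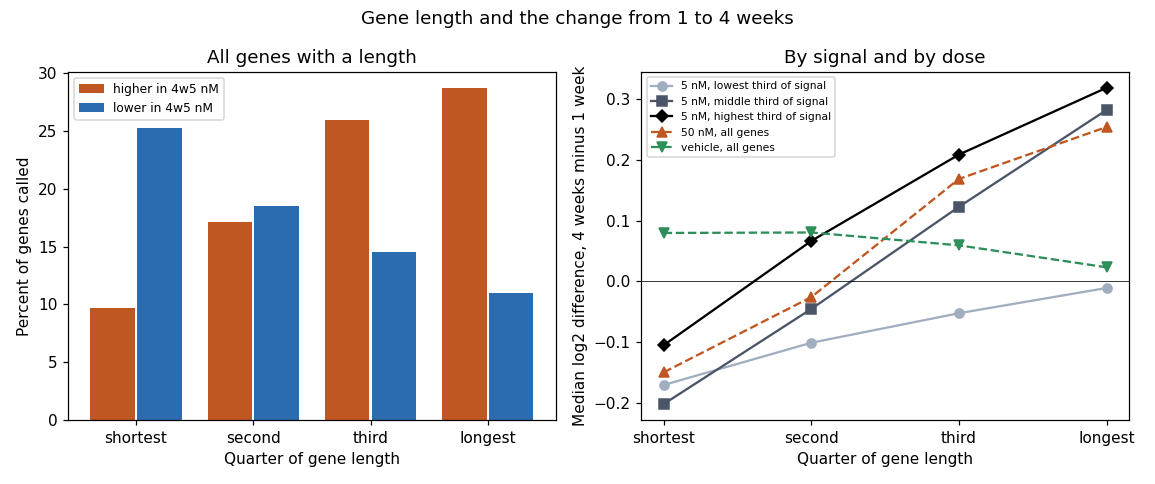
Left, percent of genes called higher (orange) and lower (blue) in 4w5 nM by length class (4 of equal size, shortest to longest); right, median log2 difference of 4 weeks minus 1 week by length class, for 5 nM in 3 groups of mean signal and for all genes at 50 nM and in vehicle cells. The share of genes called higher goes from 9.69% in the shortest class to 28.7% in the longest.

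Calls were spread unevenly over the chromosomes. On chromosome 4, 39.8% of 309 genes rose and 7.77% fell, on chromosome 13 33.5% of 167 rose and 4.79% fell, and on chromosome 18 31.0% of 126 rose and 11.1% fell. On chromosome 19, 4.79% of 605 rose and 30.6% fell, on chromosome 22 7.76% of 232 rose and 26.7% fell, and on chromosome 16 9.31% of 419 rose and 23.2% fell. The median changes of chromosomes 4, 13 and 18 were 0.29, 0.26 and 0.22 at 5 nM and 0.42, 0.41 and 0.28 at 50 nM. Those of chromosomes 19, 22 and 16 were -0.22, -0.12 and -0.15 at 5 nM and -0.29, -0.31 and -0.18 at 50 nM. The genes of chromosomes 4 and 13 are long (medians of 48.8 and 58.6 kb) and those of chromosome 19 short (15.5 kb). Among the 32 genes of the longest class on chromosome 19, 3.12% rose and 28.1% fell, whereas among the 48 of the shortest class on chromosome 4, 22.9% rose and 10.4% fell. On chromosome 16 the longest class went the other way from the chromosome as a whole (22.2% of 63 rose and 11.1% fell), and on chromosome 22 its median was 0.002. The part of gene length in the chromosome shares was not tested.

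When genes were ordered along the chromosomes in 220 blocks of 40, block medians ran from -0.52 to 0.56, with 34 above 0.3 and 14 below -0.3. The lowest block lay on chromosome 3 from APEH to NT5DC2, where 24 of 40 genes fell and none rose, and the next to it, from NBEAL2 to AMT, had 22 falling and none rising. The highest lay on chromosome 4 from ELF2 to NPY5R, where 20 rose and 3 fell. Vehicle blocks stayed between -0.19 and 0.23, and those at 50 nM ran from -0.52 to 0.88. The lowest 5 nM block, on chromosome 3, had a median of -0.0023 at 50 nM, and the highest, on chromosome 4, had 0.28.

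The median change of chromosome 8 had opposite signs at the 2 doses. At 5 nM 28.4% of its 359 genes rose and 8.64% fell (median 0.29, and 0.25 without replicate 2 of 1w5 nM), while the median change of these genes was -0.18 at 50 nM and 0.11 in vehicle cells. In the test between doses, 38 of its genes were called negative (10.6%, against 1.51% over all genes) and 6 positive. Its risers at 5 nM included WRN, FZD3, ADAM9 and BAG4, named above, and GSR. The signs differed along the chromosome. Its blocks from RPL23AP53 to ZMAT4 had medians of 0.32, 0.20 and 0.54 at 5 nM and -0.36, -0.44 and -0.32 at 50 nM. Those from SFRP1 to MRPL13 were above 0 at both doses, between 0.02 and 0.07 at 50 nM. The last block, from SNTB1 to GML, had 0.20 at 5 nM and -0.19 at 50 nM. On chromosome 3, 98 of 522 genes were called positive (18.8%, against 8.07% over all genes), and on chromosome 6 108 of 500 (21.6%). These shares between doses were taken with the arrays as labelled.

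**Figure D5:**
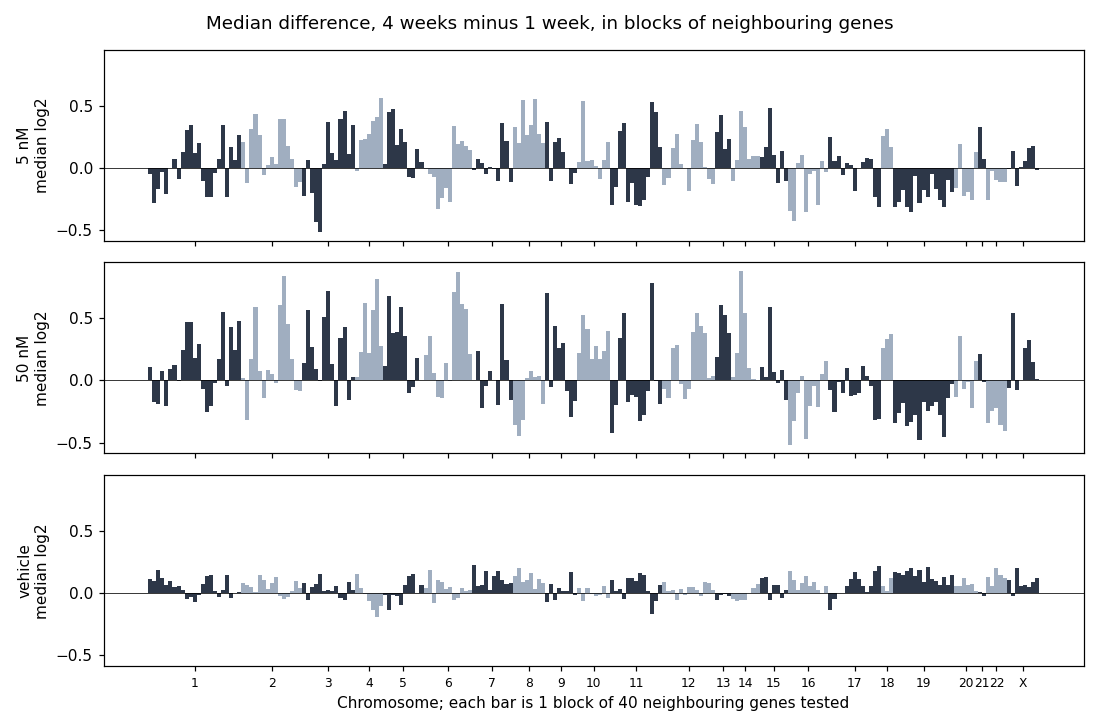
Median log2 difference of 4 weeks minus 1 week in blocks of 40 neighbouring genes in genome order, shaded by chromosome, at 5 nM (top), at 50 nM (middle) and in vehicle cells (bottom). Blocks reach -0.52 and 0.56 at 5 nM and -0.52 and 0.88 at 50 nM, and stay between -0.19 and 0.23 in vehicle cells. The first blocks of chromosome 8 stand above 0 at 5 nM and below 0 at 50 nM.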

How the data were processed

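Total RNA of 18 pooled samples was hybridized by the authors to Affymetrix human arrays, 1 array per sample. The deposited intensities are model-based expression indexes per probe set, which the authors computed in dChip after normalizing the arrays; the dChip version and the way of normalizing are not given in the sources used here. They are linear, between 0.46 and 11258.4 over 22283 probe sets, and no counts underlie them, so the number of arrays limits the precision. A gene at the floor gives only a bound of its fold change.

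Groups were read from the labels. Intensities below 16 were set to 16 and log2 was taken. Of the probe sets, 68 are controls, 19071 have a single gene in the platform annotation, 1043 several and 2169 none. Only probe sets of a single gene that reached 50 on 3 or more arrays stayed, and where several remained for 1 of the 9162 genes, the brightest on average stood for it. limma 3.58.1 (R 4.3.3) fitted 1 mean per group to all 18 arrays with an intensity trend (12 residual and 5.71 prior degrees of freedom), with Benjamini-Hochberg adjustment over all genes of a contrast. The contrasts were 4w5 nM against 1w5 nM and its difference from the vehicle and the 50 nM time changes, and the fit was tested on simulated data. A gene rose or fell at an adjusted p below 0.05 and counts as 2-fold from a log2 difference of 1. Lists are described by counts and medians without a set test. Technical measures were compared by exact permutation. Lengths and promoters came from RefSeq tables (GRCh38.p14), read in Python 3.11.15 with pandas 2.3.3, and plots were drawn in matplotlib 3.10.9.

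Genes were named by rule: the 15 largest rises and falls with an adjusted p below 0.05, no overlap between arrays and a mean of at least 100 in the higher group, up to 4 called genes of each list in each direction, the genes measured by qRT-PCR, B2M, and up to 8 genes in each direction of each difference between time changes. Exceptions are the genes whose promoters were searched, marker genes and genes named as the only called members of a list, chosen after their values were seen. The comparison, the lists and the alternatives were chosen with earlier results of these data known. Alternatives were a floor of 32, scaling to quantiles or to 1 median, a started log, filters on low signals, uses of several probe sets, no trend, array weights, a replicate block, fewer groups, the methods' t-test, the exchange of 2 arrays and leaving out each array. Images, detection calls and qRT-PCR are not used here.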

Additional observations from a re-analysis of the deposited data

Results flagged for a closer look

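The change over weeks at 5 nM differed from that in vehicle cells, in limma's test of the difference, by at least 2-fold for 629 genes in the positive and 741 in the negative direction. Of the 16 genes named for it, the positive differences on the log2 scale were 3.81 for FABP7 (adjusted p = 0.000141), a fatty acid binding protein of radial glia, 3.66 for DZANK1 (adjusted p = 0.000274), 3.54 for SERPINI1 (adjusted p = 1.58e-05), 3.47 for SLC6A15 (adjusted p = 5.74e-06), 3.04 for HNF4G (adjusted p = 0.000562), a nuclear receptor whose 1w5 nM signals were all under the floor, 3.01 for NCAM2 (adjusted p = 0.00173), 2.94 for MTHFD2L (adjusted p = 1.53e-07) and 2.79 for B3GALNT1 (adjusted p = 0.00054), a glycosyltransferase. The negative ones were -6.69 for NPTX2 (adjusted p = 2.34e-06), -5.95 for CYTL1 (adjusted p = 6.42e-09), -5.90 for G0S2 (adjusted p = 1.77e-10), -5.78 for DLK1 (adjusted p = 1.5e-08), -5.72 for LGALS1 (adjusted p = 9.91e-11), -5.10 for COL6A3 (adjusted p = 1.94e-08), -4.94 for CRYBA2 (adjusted p = 2.34e-09), a crystallin, and -4.66 for TNC (adjusted p = 5.8e-05), tenascin C. All 16 kept their call under all alternatives run.

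The change at 50 nM differed from that at 5 nM by at least 2-fold for 354 genes in the positive and 88 in the negative direction. The positive differences named were 3.41 for AIF1 (adjusted p = 0.00937), 3.31 for FRMD4B (adjusted p = 0.00245), 3.07 for EPAS1 (adjusted p = 0.00551), 2.94 for LOXL1 (adjusted p = 0.00488), 2.94 for CPE (adjusted p = 0.00173), 2.93 for HTATIP2 (adjusted p = 0.00698), 2.91 for MEOX1 (adjusted p = 0.00278) and 2.90 for SLC6A6 (adjusted p = 0.00602), the taurine carrier. The negative ones were -4.30 for HSPB8 (adjusted p = 0.0371), -3.62 for GFRA2 (adjusted p = 0.0196), -3.34 for ZIC1 (adjusted p = 0.0134), -2.90 for CRIP1 (adjusted p = 0.0449), -2.81 for EPM2AIP1 (adjusted p = 0.0255), -2.73 for BACE2 and FXYD6 (adjusted p = 0.0202 and 0.0426) and -2.70 for SPAG7 (adjusted p = 0.0252). Of these 16 genes, 8 lost their call under at least 1 alternative. No test for single-array outliers was run, as groups of 3 arrays are too small for it. The third array of 4w5 nM stood apart for several lists all the same, as described above.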

How the results depend on the processing

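For the probe set that stood for it, no named gene changed direction under the alternatives run, but other probe sets of BTG1, RAD1 and APBB2 were called the opposite way, and with the mean of all probe sets their log2 differences were -0.08, -0.01 and -0.15 (adjusted p = 0.749, 0.97 and 0.339). Of 310 named genes called in 4w5 nM against 1w5 nM, 218 kept the call throughout and 92 lost it under at least 1. The counts of 375 and 316 stayed within 1.5 times except for 204 lower genes with a started log and 669 higher ones with every probe set as a feature. Quantile normalization turned their balance over, with 294 higher and 346 lower, and 1652 and 1869 at any size. The median log2 difference of all genes was then -0.0196, against 0.0194 as reported. At any size of change, array weights gave 3092 and 2623 genes in place of 1868 and 1587, and the methods' t-test after Benjamini-Hochberg gave 1274 and 868. Leaving out 1 array gave 338 to 422 higher and 282 to 344 lower, the extremes coming without 1w5 nM replicate 2, 4w5 nM replicate 2 and 1w5 nM replicate 3. For the difference from vehicle, every probe set as a feature gave 995 positive genes, and leaving out 1 array 509 to 942 positive and 659 to 782 negative. For the difference from 50 nM, quantile normalization gave 210 positive (66.5% of 2-fold calls, 67.6% with median scaling, 80.1% as reported), no filter 44 negative, every probe set 559 positive, array weights 235 negative, fewer groups 207 negative, the exchange 81 and 30, and leaving out 1 array 195 to 454 and 28 to 125. Deviations from the group means correlated at -0.0113, 0.119 and -0.0208 between 1w5 nM and 4w5 nM replicates of the same number. Between those of different number they correlated at -0.123 to 0.0852. Deviations from means of 3 arrays cannot decide whether a number marks the experiment. The replicate block gave 369 and 316 genes, 619 and 737 for the difference from vehicle and 321 and 68 for that from 50 nM. Signals at the floor limit what can be seen of low genes.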
